A study of Mus musculus with 134 samples.

Results

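The 2 Aebp2 knockout (KO) clones of mouse embryonic stem cells, Aebp2 KO1 and Aebp2 KO2, were compared with each other. The members were the 4 gene expression libraries titled with these clone names, 2 of KO1 and 2 of KO2, among 54 bulk expression libraries and 134 samples in the series. They came from H3K27me3 SET-seq, which separates nuclei on concanavalin A beads for profiling of the histone mark and takes the cytoplasmic RNA of the same sample for expression profiling. The cells, labelled E14, were of the embryonic stem cell line ES-E14TG2a of strain 129/Ola, untreated, grown with serum and LIF on gelatin, and the labels gave day1 as the age of all of them. Both clones carried the same targeted gene, and clones of a gene were made with CRISPR/Cas9 and a pair of different guides. Each group was 1 clone, so a difference between KO1 and KO2 belongs to those clones and cannot be told apart from any other difference between them. As reference levels, the 6 expression libraries of wild-type (WT) H3K27me3 SET-seq were used, with 2 libraries each of 100, 1000 and 10000 cells.

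AEBP2 is an accessory subunit of PRC2 (Polycomb Repressive Complex 2). The core of PRC2, formed by EZH1 or EZH2 with SUZ12, EED and RBBP4 or RBBP7, methylates histone H3 on lysine 27, and accessory subunits such as AEBP2, JARID2 and MTF2 tune its activity and its binding to chromatin. In embryonic stem cells this mark covers the promoters of many silent developmental genes.

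Both Aebp2 guides used for the knockout are shown because they define the alleles that the clones could carry. The labels did not say which guide made which clone. Each sequence is given 5′ to 3′ on the plus strand with the PAM, the motif that Cas9 needs beside its target, in capitals.
Aebp2 sg#1: attcgctccatacatgtcgaTGG
Aebp2 sg#2: aacaggtgttcgtttgcttgTGG
In mm9 (NCBIM37), sg#1 lay at chr6:140582382-140582401, inside an Aebp2 exon (chr6:140582210-140582417). sg#2 lay at chr6:140586176-140586195 and began in the intron before the next targeted exon (chr6:140586181-140586288), so that it crossed the border of intron and exon. Both cut sites fell in coding sequence, in exon 2 or 3 for sg#1 and in exon 3 or 4 for sg#2, depending on the GENCODE transcript. The counts were summed over whole genes and do not show the edits themselves.

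The 4 libraries held between 1964974 and 2351822 counts. Between 48.8% and 56.7% of these fell on Rn45s, the ribosomal RNA precursor, against 21.9% to 29.7% in the 6 WT libraries. Without Rn45s, 935126 to 1124026 counts remained, and levels are given as CPM, that is counts per 1000000 of these remaining counts. KO2 replicate 2 detected 12624 genes, whereas the other 3 libraries detected 15060 to 15625. After thinning to 935126 counts each, the numbers were 12369 against 15060 to 15463, so KO2 replicate 2 stood apart at equal depth, and the results were also computed without it. Markers of embryonic stem cells (Pou5f1, Sox2, Nanog, Zfp42, Esrrb and Tdgf1) summed to 1802 to 2514 CPM in the 4 libraries. The 8 fibroblast feeder markers summed to 6.23 to 28.5 CPM, with Dcn and Lum at 0 counts in all 4. The 6 primitive endoderm markers summed to 7.12 to 11.9 CPM and the 4 trophoblast markers to 5.96 to 10.7 CPM. Hprt had 0 to 2 counts and Ftl1 0 to 2 counts in each KO library but at least 291 and 4704 CPM in each WT library, so WT levels are given only as reference and were not tested against the clones.

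Aebp2 RNA was detected in both clones and was lower in KO1. Aebp2 (mm9 chr6:140571184-140626993, plus strand) stood at 15.7 and 15.0 CPM in KO1 and at 49.7 and 30.2 CPM in KO2, from 16, 14, 50 and 34 counts. The clones did not overlap, and both KO1 libraries and KO2 replicate 2 were below the lowest WT library (34.7 CPM), whereas KO2 replicate 1 lay within the WT range, which reached 76.0 CPM. KO2 was 2.76-fold higher than KO1 (log2 fold change of KO1 over KO2 -1.46 ± 0.39 (SE), n = 2 libraries per clone, edgeR quasi-likelihood test, adjusted p = 0.013). Without KO2 replicate 2 the log2 fold change was -1.77. Without KO2 replicate 1 it was -1.10 and the adjusted p was 0.12, and without KO1 replicate 1 or 2 the adjusted p was 0.060 or 0.084, so the call was lost when any library other than KO2 replicate 2 was left out.

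Across the transcriptome, 858 of 8551 tested genes (10.0%) differed between the clones at an adjusted p below 0.05. Of these, 445 (5.20% of the tested genes) were higher and 413 (4.83%) were lower in KO1. All fold changes are log2 values of KO1 over KO2, so that positive values mean a higher level in KO1, and "called" means an adjusted p below 0.05 in edgeR over all tested genes. The median over all tested genes was -0.01. Changes above 2-fold were more often upward, with 214 called genes higher and 89 lower in KO1. When calls required an unadjusted P below 0.05 together with more than a 2-fold change, 531 genes (6.21%) differed, 363 of them higher in KO1. With library totals in place of TMM scaling, 874 genes were called and 620 of them were higher in KO1, so the balance between directions rested on the scaling, while the median of the tested genes moved by 0.10. Without KO2 replicate 2, 626 of 9230 genes (6.78%) were called, and 3.36% of the tested genes were higher and 3.42% lower in KO1. All 858 genes kept their direction without it, 811 kept an unadjusted P below 0.05 and 515 stayed called. Leaving out another library gave 340 calls without KO1 replicate 1, 181 without KO1 replicate 2 and 1361 without KO2 replicate 1. CPM did not overlap between the clones for 4536 tested genes (53.0%).

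**Figure D1:**
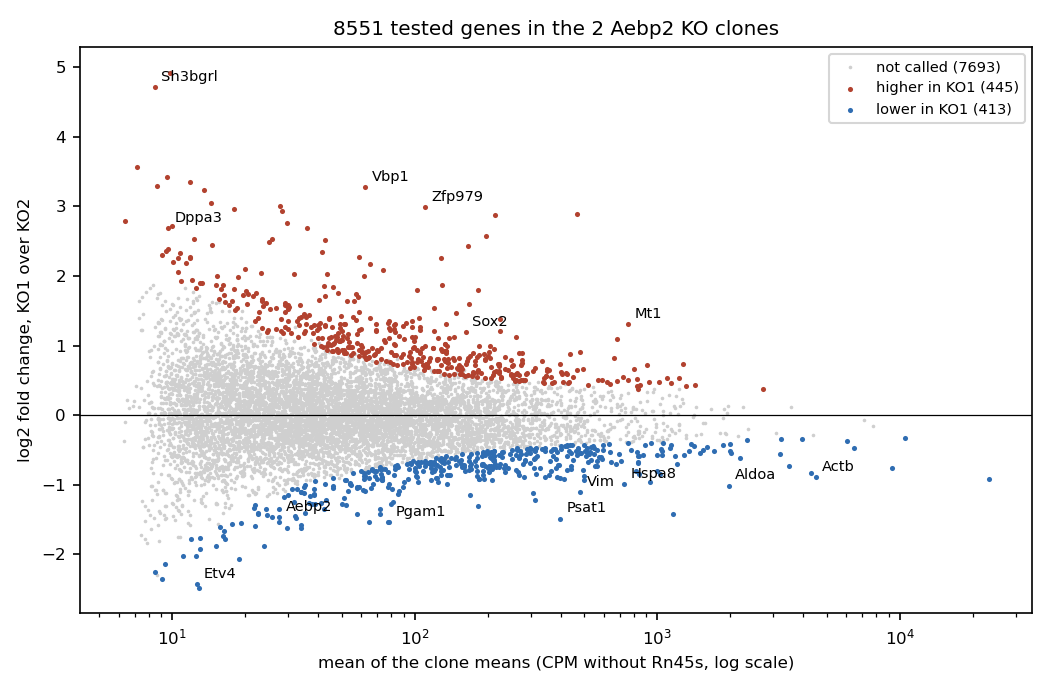
Each point is 1 of 8551 tested genes, with the mean of both clone means on the x axis (CPM without Rn45s, log scale) and the log2 fold change of KO1 over KO2 on the y axis; red and blue points are the 445 genes called higher and the 413 called lower in KO1. The changes above 3 on the log2 scale lie on the upward side, and Lars2, the gene with the highest counts, lies below 0.

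Several of the largest increases in KO1 were in genes with 0 to 4 counts in each KO2 library, while Vbp1 and Zfp979 were also detected in KO2. Vbp1, which encodes a prefoldin subunit and lies on the X chromosome, stood at 96.1 and 132 CPM in KO1. In KO2 it stood at 12.9 and 8.90 CPM (log2 fold change 3.28 ± 0.33, adjusted p = 2.0e-08). KO1 lay near the WT range of 97.8 to 139 CPM and KO2 far below it. Sh3bgrl, also on the X chromosome, had 15 and 17 counts in KO1 and 0 and 1 in KO2, a ratio of pooled CPM of 34.9 with a 95% exact counting interval of 5.83 to 1420. Mageb16, an X-linked member of the MAGE family, stood at 18.6 and 31.0 CPM in KO1 and at 0.994 and 3.56 CPM in KO2 (3.24 ± 0.67). Ccbe1, which encodes a secreted factor for lymphatic growth, had 16 and 18 counts in KO1 and 3 and 0 in KO2, a ratio of 12.4 (3.88 to 62.9). It was at most 1.80 CPM in the WT libraries, so here KO1 was the clone that stood apart from WT. Lipo3, a lipase gene, had 14 and 12 counts in KO1 and 2 and 0 in KO2 (ratio 14.2, interval 3.55 to 123).

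The other 7 of the 12 largest increases were zinc finger genes or an uncharacterised locus. Zfp934 on chromosome 13 had 17 and 20 counts in KO1 and 1 and 0 in KO2 (ratio 40.3, interval 6.80 to 1635). Zbtb6 on chromosome 2 had 16 and 15 counts in KO1 and 1 and 2 in KO2 (ratio 11.3, interval 3.51 to 57.6). Zfp942, Zfp960 and Gm7072 on chromosome 17 had log2 fold changes of 3.35, 3.06 and 2.96. Zfp987 and Zfp979 on chromosome 4 had log2 fold changes of 3.01 and 2.99, and the run of genes that holds them is described further on. In each of these 7 genes, picked for their increase, both KO1 libraries were above both KO2 libraries. CPM did not overlap for 53.0% of all tested genes. All 12 were called with all 4 libraries, and Lipo3 and Ccbe1 were not called without KO2 replicate 2 (adjusted p = 0.18 and 0.098). Among abundant genes, chosen after their values were seen, Ptma, which encodes the nuclear protein prothymosin alpha and has many processed copies in the genome, stood at 569 and 1090 CPM in KO1 and at 120 and 89.9 CPM in KO2 (2.88 ± 0.21, adjusted p = 3.5e-11), against 674 to 1009 CPM in WT.

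The largest decreases in KO1 were smaller and also concerned genes of low level. Etv4, an ETS factor induced by FGF signaling, stood at 3.92 and 4.28 CPM in KO1 and at 23.9 and 18.7 CPM in KO2 (-2.43 ± 0.60, adjusted p = 0.0078). Acot2, a mitochondrial acyl-CoA thioesterase, stood at 3.92 and 4.28 CPM in KO1 and at 14.9 and 28.5 CPM in KO2 (-2.48 ± 0.61). For Acot2 the 2 KO2 libraries differed more from each other than the KO1 libraries did, and it was not called without KO2 replicate 2 (adjusted p = 0.25). Egr1, an immediate early transcription factor gene, stood at 3.92 and 6.42 CPM in KO1 and at 23.9 and 16 CPM in KO2 (-2.02 ± 0.59), while no WT library exceeded 2.40 CPM. Mrpl24, a mitochondrial ribosomal protein gene, stood at 12.8 and 8.55 CPM in KO1 and at 40.8 and 33.8 CPM in KO2 (-1.88 ± 0.42). Mcm8, which encodes a helicase subunit of DNA repair, stood at 3.92 and 9.62 CPM in KO1 and at 31.8 and 15.1 CPM in KO2 (-1.88 ± 0.56). The other 7 of the 12 were Tcf19, Hpcal1, Tango2, Kbtbd11, Gng3, Cbr3 and Accsl, with log2 fold changes of -2.35 to -1.78. All 12 were picked by these values, and CPM did not overlap between the clones for 53.0% of all tested genes. In all 12 genes the KO1 libraries were below the KO2 libraries, and only Etv4, Egr1, Mrpl24 and Mcm8 of the 12 were called without KO2 replicate 2.

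Besides Aebp2, the called genes of the Polycomb system were Suz12 and Mtf2. Of all tested genes, 10.0% were called. Of the 6 PRC2 core subunit genes, all tested, Suz12 was called. Suz12 stood at 466 and 536 CPM in KO1 and at 347 and 275 CPM in KO2 (0.59 ± 0.15, adjusted p = 0.0084). Ezh2, the main methyltransferase gene in dividing cells, stood at 260 and 291 CPM in KO1 and at 324 and 262 CPM in KO2, which overlapped (-0.19 ± 0.16, adjusted p = 0.51). Eed, Rbbp4, Rbbp7 and Ezh1 were not called, with log2 fold changes of -0.02, 0.34, -0.24 and 0.56. Of the PRC2 accessory subunit genes, 6 of 9 passed the filter on low counts. Mtf2, whose product binds unmethylated CpG-rich DNA, was called besides Aebp2, at 673 and 744 CPM in KO1 and 560 and 378 CPM in KO2 (0.50 ± 0.15, adjusted p = 0.027). Jarid2, which occurs with AEBP2 in the same form of PRC2, stood at 568 and 589 CPM in KO1 and at 410 and 425 CPM in KO2 and was not called (0.37 ± 0.14, adjusted p = 0.076), although it was called without KO2 replicate 2 (0.42, adjusted p = 0.043). Epop, Lcor and Lcorl were not called (-0.21, 0.34 and 0.53). None of the 17 tested of 22 PRC1 subunit genes was called, although Rnf2, the ubiquitin ligase subunit, stood at 69.7 and 82.3 CPM in KO1 and at 43.7 and 47.1 CPM in KO2 (0.64 ± 0.26, adjusted p = 0.12). Suz12 and Mtf2 were not called with an offset for exon GC content and length, which is explained below, and the value of Mtf2 was then -0.15. Mtf2 was also not called without KO2 replicate 2 (adjusted p = 0.25).

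Other chromatin regulators moved in both directions. Of 15 tested H3K4 methyltransferase complex genes, Kmt2a (0.82), Kmt2c (0.82) and Hcfc1 (0.46) were higher in KO1 and Ash2l (-0.44) was lower. These were 26.7% of the 15, against 10.0% of all tested genes. Hcfc1, which encodes a subunit that tethers SET1 and MLL enzymes, stood at 1377 and 1342 CPM in KO1 and at 960 and 884 CPM in KO2. Of 7 tested genes for DNA methylation and its removal, Tet1, which encodes a 5-methylcytosine dioxygenase, was higher in KO1. It stood at 550 and 614 CPM in KO1 against 343 and 351 CPM in KO2 (0.65 ± 0.14, adjusted p = 0.0024). Uhrf1, which recruits the maintenance methyltransferase, was lower, with 621 and 718 CPM in KO1 against 830 and 945 CPM in KO2 (-0.51 ± 0.13). Of these 6 genes, Ash2l was not called without KO2 replicate 2 (adjusted p = 0.075). None of 7 tested demethylase genes for H3K27 and H3K4 was called.

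Among pluripotency genes, Sox2 and Nanog were higher in KO1 and most others did not differ detectably. Sox2, which encodes a partner of OCT4, stood at 202 and 259 CPM in KO1 and at 100 and 87.2 CPM in KO2, a 2.29-fold difference (log2 1.20 ± 0.19, adjusted p = 7.3e-05). The KO2 libraries lay below the WT range of 135 to 209 CPM. Nanog stood at 929 and 1086 CPM in KO1 and at 713 and 484 CPM in KO2 (0.66 ± 0.14, adjusted p = 0.0030), and KO2 replicate 2 was the lowest of the 4. Sall4 was higher in KO1 (0.38 ± 0.12, adjusted p = 0.046) and was not called without KO2 replicate 2. Pou5f1, which encodes OCT4, stood at 153 and 135 CPM in KO1 and at 158 and 183 CPM in KO2 (-0.35 ± 0.18, adjusted p = 0.25). Lin28a, Utf1, Zfp281, Tdgf1 and Trim28 were not called, with log2 fold changes of -0.33 to 0.23. Of the 10 core factors, 3 were thus higher and 0 lower (against 5.20% and 4.83% of all tested genes), with a class median of 0.17. With the GC and length offset, Trim28 was called lower in KO1 (-0.27). Of 18 naive pluripotency genes, all tested, Dppa3 alone was called (5.56%, against 10.0% of all tested genes). Dppa3, also known as Stella and marked by heterogeneous expression in embryonic stem cells, had 17 and 16 counts in KO1 and 1 and 4 in KO2 (2.69 ± 0.73, adjusted p = 0.015). Its CPM of 16.7 and 17.1 in KO1 exceeded the WT libraries, which reached 10.2 CPM. The median of the 18 genes was -0.11.

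Genes that mark the 2-cell-like state, a small fraction of cells that express genes of the 2-cell embryo, summed to 463 and 542 CPM in KO1 and to 353 and 271 CPM in KO2, and to 35.7 to 70.3 CPM in WT. Only 4 of the 16 genes in the table passed the filter, and 2 of these were called (50.0%, against 10.0% of all tested genes). Gm5662 (2.48 ± 0.45, adjusted p = 4.2e-04) and Zscan4d (0.77 ± 0.22, adjusted p = 0.023) were higher in KO1, and Zscan4d was not called without KO2 replicate 2. The Zscan4 genes are near-identical copies, so the split of counts among them is uncertain. Of 26 germline genes, 4 were tested and Dazl, an RNA-binding protein gene of germ cells, was called at 56.9 and 66.3 CPM in KO1 against 24.9 and 22.2 CPM in KO2 (1.29 ± 0.30). No member was called among 9 tested primed epiblast and Nodal pathway genes, 6 primitive endoderm genes, 4 trophoblast genes and 3 lineage transcription factor genes under Polycomb control, of which 55 were listed. The primed epiblast and Nodal genes summed to 1144 and 1174 CPM in KO1 and to 874 and 936 CPM in KO2, and 2 of them were called higher in KO1 with the GC and length offset. The 39 Hox genes had no member above the filter, and their summed level was 71.6 and 48.1 CPM in KO1 and 67.6 and 58.7 CPM in KO2, which overlapped.

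Of 8 tested FGF and ERK feedback genes, 4 were lower in KO1 and 0 were higher (against 4.83% lower and 5.20% higher of all tested genes), with a class median of -1.15. These were Etv4, Egr1, Etv1 (-1.35 ± 0.40) and Myc (-1.0 ± 0.33), and Dusp6, an ERK phosphatase gene, was at -1.30 without being called. Etv5, the most abundant of them, stood at 1289 and 1240 CPM in KO1 and at 942 and 1204 CPM in KO2 and was not called (0.14 ± 0.13). Because Etv5 dominated the sum, the summed CPM of the class overlapped between clones and leaned toward KO1 (log2 ratio of the clone means 0.14), opposite to the median. In the fit without KO2 replicate 2, 2 were called lower and 1 higher, and Etv1 and Myc were not called (adjusted p = 0.076 and 0.12). Of 12 tested LIF-STAT3 and BMP-Id genes, Stat3, the transcription factor downstream of LIF, stood at 41.2 and 34.2 CPM in KO1 and at 81.5 and 60.5 CPM in KO2 (-1.0 ± 0.28, adjusted p = 0.019), and Id1, a BMP target, was also lower (-1.74 ± 0.54), while the median of the 12 was 0.06. Of the Wnt pathway genes, Lef1, a nuclear effector and target of Wnt signaling, stood at 75.5 and 71.6 CPM in KO1 and at 37.8 and 32.0 CPM in KO2 (0.98 ± 0.27, adjusted p = 0.019), with at most 2.37 CPM in WT. Gsk3b (0.85) and Apc (0.61), which encode parts of the beta-catenin destruction complex, were higher in KO1 as well. Of 13 tested genes for TCF/LEF factors and this complex, 3 were higher and 0 lower, and of 9 tested Wnt feedback and target genes Lef1 alone was called (11.1%, near the 10.0% of all tested genes). Apc was not called with the GC and length offset. Lef1 and Id1 were not called without KO2 replicate 2 (adjusted p = 0.085 and 0.088).

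Of 19 tested glycolysis genes, 7 were lower and 0 higher in KO1 (36.8% called, against 10.0% of all tested genes), with a class median of -0.29, and 7 had a log2 fold change above 0. The summed level of the class was 17576 and 16786 CPM in KO1, 22327 and 26160 CPM in KO2 and at most 11936 CPM in WT, so that KO1 was nearer to WT. Gapdh had only 2 and 3 counts in KO1 and 6 and 13 in KO2 and did not pass the filter. The sum therefore holds almost nothing of this member. Aldoa, the aldolase gene, stood at 1434 and 1300 CPM in KO1 and at 2289 and 2866 CPM in KO2 (-1.01 ± 0.12, adjusted p = 9.4e-07). Ldha, which makes lactate from pyruvate, stood at 3292 and 3197 CPM in KO1 and at 5119 and 5651 CPM in KO2 (-0.83 ± 0.10, adjusted p = 2.3e-06). Pgam1 (-1.54 ± 0.25) and Tpi1 (-1.12 ± 0.17) had the largest changes of the class, and Eno1, Pgk1 and Pkm were the other called members. The glucose transporter gene Slc2a3 (0.19) and the hexokinase genes Hk1 (0.69) and Hk2 (-0.37) were not called. The counts were 7 lower and 0 higher without KO2 replicate 2, and 8 and 0 with the GC and length offset.

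Genes of serine and glycine synthesis and amino acid supply were examined as the amino acid stress response. Of 17 tested members, 8 were lower and 0 higher in KO1 (47.1% called, against 10.0% of all tested genes), with a median of -0.64. They summed to 3442 and 3231 CPM in KO1 and to 4868 and 5303 CPM in KO2. Psat1, an aminotransferase of serine synthesis, stood at 231 and 210 CPM in KO1 and at 569 and 585 CPM in KO2, a 2.80-fold difference (log2 -1.49 ± 0.15, adjusted p = 1.5e-08). KO1 lay in or just below the WT range of 212 to 297 CPM and KO2 above it. Psph (-1.35 ± 0.31) and Phgdh (-0.72), whose products act after and before PSAT1 in that pathway, were lower as well, as were Asns, the asparagine synthetase gene (-0.84 ± 0.12), and Gars, which encodes glycyl-tRNA synthetase (-0.90 ± 0.15). Atf4, the transcription factor of this response, was at -0.62 ± 0.21 with an adjusted p of 0.051. In the fit without KO2 replicate 2, 6 members were lower and 0 higher, and Phgdh was not called (adjusted p = 0.17). Of 15 tested purine metabolism genes, 5 were lower and 0 higher (33.3% called, median -0.45), led by Impdh2, which encodes the enzyme for the first step to GMP (-1.21 ± 0.30), and Atic, Gart and Gmps (-0.65, -0.64 and -0.53). No cholesterol synthesis gene of 19 tested was called (median -0.28).

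**Figure D2:**
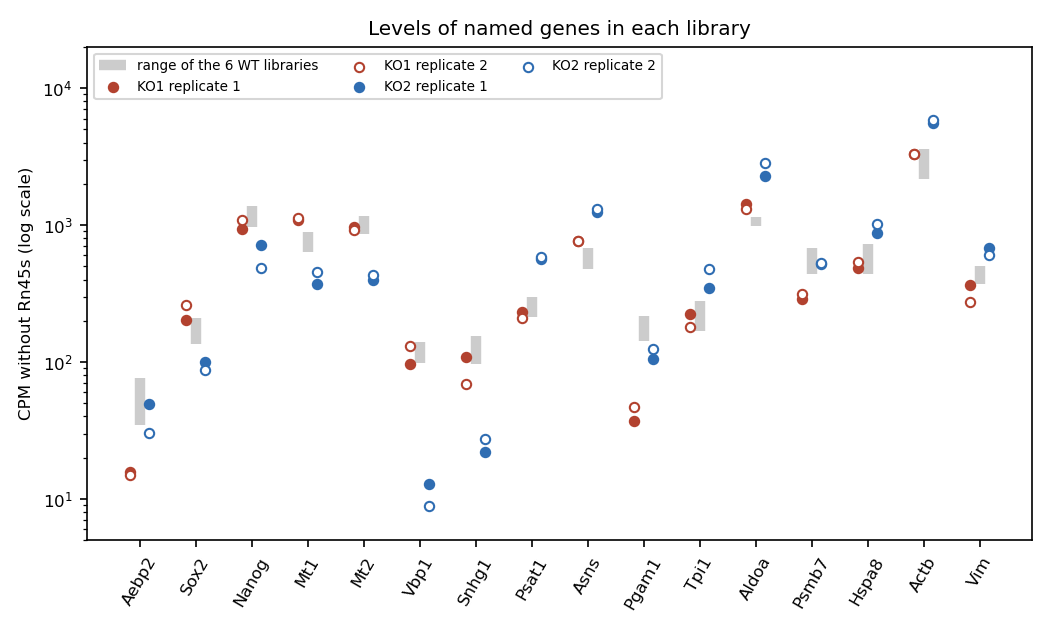
CPM without Rn45s (log scale) of 16 genes in each library, with KO1 in red and KO2 in blue, filled circles for replicate 1 and open circles for replicate 2, and grey bars for the range of the 6 WT libraries. For each of the 16 genes, all of them called, both libraries of 1 clone lie above both of the other. CPM did not overlap for 53.0% of all tested genes. Aebp2, Psat1, Asns, Pgam1, Tpi1, Aldoa, Psmb7, Hspa8, Actb and Vim are lower in KO1, and Sox2, Nanog, Mt1, Mt2, Vbp1 and Snhg1 are higher.

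Of 36 tested proteasome subunit genes, 12 were lower in KO1 and 0 higher (33.3% called, against 10.0% of all tested genes), with a median of -0.43. Psmb7, a catalytic subunit gene, stood at 286 and 312 CPM in KO1 and at 524 and 533 CPM in KO2 (-0.92 ± 0.14, adjusted p = 4.8e-05), and Psmd13, Psma1 and Psmd5 were at -0.85, -0.81 and -0.81. The count was 8 lower without KO2 replicate 2 and 7 with the GC and length offset. Of 12 tested heat shock and chaperone genes, 6 were lower and 0 higher (50.0% called). Hspa8, the constitutive HSP70 gene, stood at 484 and 536 CPM in KO1 and at 881 and 1018 CPM in KO2 (-1.0 ± 0.13, adjusted p = 5.3e-06). Chaperones of the endoplasmic reticulum were among them, Pdia4 (-1.34 ± 0.26), Calr (-0.89) and Hspa5 (-0.89). Of 74 tested mitochondrial ribosomal protein genes, 6 were lower and 0 higher (8.11% called, near the share of all tested genes), with a median of -0.23. Without KO2 replicate 2, 3 of them were lower and 0 higher.

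The cytoplasmic actin genes were lower in KO1. Actb stood at 3315 and 3288 CPM in KO1 and at 5547 and 5896 CPM in KO2 (-0.89 ± 0.10, adjusted p = 4.4e-07), and Actg1 at 681 and 638 CPM against 1168 and 1241 CPM (-0.97 ± 0.12). Both KO1 libraries lay in the WT range for Actb, and both KO2 libraries above it. Of 12 tested actin cytoskeleton and SRF target genes, 4 were lower and 1 was higher, the X-linked Flna, which encodes an actin crosslinker (1.29 ± 0.32). These were 41.7% of the 12, against 10.0% of all tested genes. Of 13 tested extracellular matrix and adhesion genes, 2 were higher and 2 lower (30.8% called). Vim, an intermediate filament gene, was lower (-1.11 ± 0.15), as was Krt8 (-0.91, adjusted p = 0.050 without KO2 replicate 2), while Cdh1, which encodes E-cadherin, was higher at 430 and 463 CPM against 305 and 264 CPM (0.55 ± 0.15), and so was the fibronectin gene Fn1 (0.44, adjusted p = 0.033). Among abundant genes chosen after their values were seen, the elongation factor gene Eef1a1 stood at 7140 and 7257 CPM in KO1. In KO2 it stood at 11081 and 11622 CPM (-0.76 ± 0.10). Lars2, chosen likewise and with the highest counts in these libraries after Rn45s, stood at 18213 and 15431 CPM in KO1. In KO2 it stood at 28637 and 30684 CPM (-0.92 ± 0.09). The paper's alignment left out the mitochondrial genome, and whether all Lars2 counts came from its mRNA was not tested.

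Metallothionein genes were higher in KO1. Mt1, which encodes a metal-binding protein induced by zinc and other metals, stood at 1086 and 1118 CPM in KO1 and at 371 and 457 CPM in KO2, a 2.48-fold difference (log2 1.31 ± 0.13, adjusted p = 3.4e-08). Mt2, its neighbour on chromosome 8, stood at 964 and 925 CPM in KO1 and at 399 and 430 CPM in KO2 (1.09 ± 0.13, adjusted p = 9.6e-07). For both genes KO2 lay below all WT libraries. For Mt1, KO1 lay above the WT range of 634 to 894 CPM, and for Mt2 it lay within the WT range. Of 9 tested genes of ferritin, metallothioneins and iron handling, Fth1 (0.46) and Ireb2 (0.58) were also higher and Aco1 (-0.59) was lower, but Ireb2 and Aco1 were not called without KO2 replicate 2 (adjusted p = 0.30 and 0.12). Ribosomal protein genes were called in both directions, 10 higher and 6 lower in KO1 of 71 tested (median 0.06), and their sums overlapped. The share called was 22.5%, against 10.0% of all tested genes. With the GC and length offset, 12 ribosomal protein genes were called higher and 3 lower, and without KO2 replicate 2 their median was 0.17. Of 75 tested nuclear-encoded respiratory chain genes, 7 were higher and 8 lower (20.0% called, median 0.04), with 6 and 4 without KO2 replicate 2 and 7 and 2 with the offset. Of 10 tested small nucleolar RNA host genes, Snhg1 alone was called (10.0%, the same share as among all tested genes). It stood at 109 and 69.5 CPM in KO1 against 21.9 and 27.6 CPM in KO2 (1.75 ± 0.30, adjusted p = 2.2e-04).

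Of 16 tested p53 target genes, Trp53inp1 (0.98) was higher in KO1 and Mdm2 (-0.93) and Plk2 (-1.15) were lower. These were 18.8% of the 16, against 10.0% of all tested genes. The class median (-0.23) and the log2 ratio of its summed levels (0.13) differed in sign. Of 13 tested cyclin and CDK inhibitor genes, Cdk4 (-0.49) and Ccne1 (-0.65) were lower (15.4% called). Of these 5 genes, Mdm2 and Ccne1 were called without KO2 replicate 2. No gene was called among 14 tested histone genes and 6 interferon-stimulated genes.

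**Figure D3:**
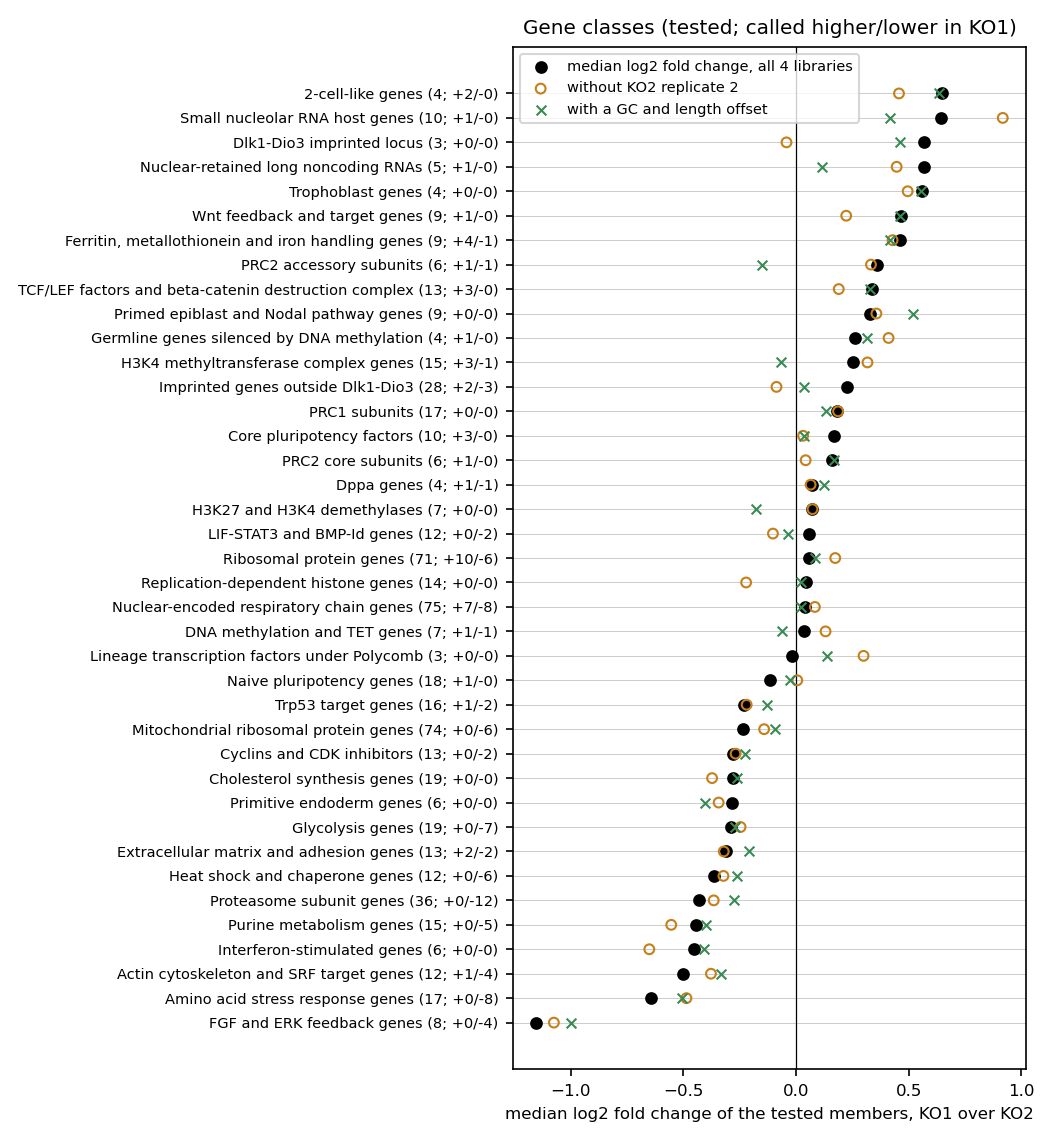
Median log2 fold change of KO1 over KO2 for the tested members of each gene class with at least 3 tested members, with the number tested and the numbers called higher and lower in KO1 in brackets; black points use all 4 libraries, open circles leave out KO2 replicate 2 and crosses add the GC and length offset. Among the classes below 0 in all 3 versions are FGF and ERK feedback, amino acid stress response, actin, purine, proteasome and chaperone genes. Others there include glycolysis, and the cholesterol, primitive endoderm and interferon-stimulated classes, which had no called member.

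Of the 44 gene classes, the summed CPM did not overlap between the clones in 26 (CPM did not overlap for 53.0% of all tested genes). It was higher in KO1 in 17 and lower in 9. These CPM sums were divided by library totals, and with TMM-scaled CPM of the tested members 13 were higher and 17 lower, and the class sums whose direction turned with the scaling differed by at most 0.08 on the log2 scale, that of the ribosomal protein genes. With 2 libraries against 2, an exact permutation test of a single value cannot give a two-sided p below 0.333, and no test of a class was made.

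Imprinted and sex-linked genes were examined because clones of a stem cell line can drift at these loci. Of 28 tested imprinted genes outside Dlk1-Dio3, Sfmbt2 (1.17) and Ube3a (0.99) were higher and Grb10 (-1.28), Gnas (-0.70) and Cd81 (-0.57) were lower in KO1. These were 17.9% of the 28, against 10.0% of all tested genes. Grb10, a growth factor receptor adaptor gene, stood at 17.7 and 29.9 CPM in KO1 and at 50.7 and 56.9 CPM in KO2. Ube3a was at -0.041 with the GC and length offset, and Gnas was not called without KO2 replicate 2 (adjusted p = 0.055). At the Dlk1-Dio3 locus, 3 of 6 genes were tested and none was called. Meg3, the maternally expressed noncoding RNA that is silenced in some stem cell lines, stood at 53.0 and 41.7 CPM in KO1 and at 46.7 and 33.8 CPM in KO2, which overlapped (0.15 ± 0.30, adjusted p = 0.82), and Rian and Rtl1 were at 0.57 and 0.62. Of the Y-linked genes, Ddx3y (-0.40) and Eif2s3y (-1.28) were tested and not called, and Ddx3y overlapped at 13.7 and 37.4 CPM in KO1 and 41.8 and 21.4 CPM in KO2. Both were called lower in KO1 with the offset (-1.54 and -1.72). Xist, the noncoding RNA of X inactivation, was low in all libraries, with 19 and 28 counts in KO1 and 6 and 9 in KO2 (1.67 ± 0.53, adjusted p = 0.040), and was not called without KO2 replicate 2.

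A run of zinc finger genes on chromosome 4 held many of the larger differences. It was noticed and delimited after the values were seen. The run spans 2122 kb (mm9 chr4:145100662-147222527) and holds 21 annotated genes, most of them named Zfp. Such genes encode KRAB zinc finger proteins, a family that often silences transposons through TRIM28 and lies in clusters of recent duplicates. Of 14 tested genes in the run, 11 were called, against 10.0% of all tested genes. All 11 were higher in KO1, by log2 values of 1.12 to 3.01. Zfp979 stood at 160 and 235 CPM in KO1 and at 27.8 and 18.7 CPM in KO2, a 7.95-fold difference (2.99 ± 0.26, adjusted p = 1.9e-09). Zfp981 stood at 292 and 383 CPM in KO1 and at 75.5 and 32.0 CPM in KO2 (2.57 ± 0.23, adjusted p = 2.9e-09). Zfp985 stood at 216 and 344 CPM in KO1 and at 79.5 and 19.6 CPM in KO2 (2.43 ± 0.29, adjusted p = 9.7e-07). In these 3 genes both KO1 libraries were above both KO2 libraries, and KO2 replicate 2 was the lowest. CPM did not overlap for 53.0% of all tested genes.

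All genes of the run summed to 1810 and 2222 CPM in KO1, to 728 and 348 CPM in KO2 and to 545 to 671 CPM in the WT libraries. KO1 was thus above WT, KO2 replicate 1 just above and KO2 replicate 2 below. The 3 tested genes of the run that were not called were Zfp992 (0.47), Gm13034 (0.11) and the pseudogene Znf41-ps, which stood at 43.2 and 36.4 CPM in KO1 and at 41.8 and 40.9 CPM in KO2 (-0.15). Of the 10 tested genes before the run and the 10 after it, only Clcn6, a chloride transporter gene, was called (1.43 ± 0.34), and their median was 0.22. In the fit without KO2 replicate 2, 9 genes of the run were called and the median fell from 1.95 to 1.47. With the GC and length offset, 10 were called and the median was 1.07, where Znf41-ps was called lower in KO1 (-1.17). The exons of the 11 called genes had between 2.13% and 71.1% of their 100-base words repeated elsewhere on chromosome 4, so counts of the most similar copies are uncertain. Among these 11, Zfp985 (2.13%) and Zfp979 (5.46%) had the fewest repeated words, with log2 fold changes of 2.43 and 2.99. Zfp987 had 67.3% and the largest change (3.01), and Zfp990 had 12.3% and a change of 1.60. Inexact copies and other chromosomes were not searched, and the part of shared sequence in these differences was not tested. Over all 211 tested genes named Zfp and a number, 31 were higher and 2 lower in KO1 (median 0.34), against 5.20% and 4.83% of all tested genes. The counts were 15 and 2 without KO2 replicate 2 and 15 and 4 with the offset. One of the 2 lower genes was Zfp57, whose product protects imprints. It stood at 201 and 192 CPM in KO1 and 376 and 480 CPM in KO2 (-1.22 ± 0.16, adjusted p = 4.1e-06). Other Zfp clusters had 4 of 10 tested genes higher in KO1 (chromosome 17 from 21 Mb) and 3 of 7 (chromosome 7 from 50 Mb). With the offset these were 2 and 0. Those on chromosomes 13 (from 67 Mb) and 17 (from 33 Mb) had 1 higher each, and that on chromosome 6 had 1 lower. Those on chromosome 7 from 25, 31 and 134 Mb had 0 called.

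**Figure D4:**
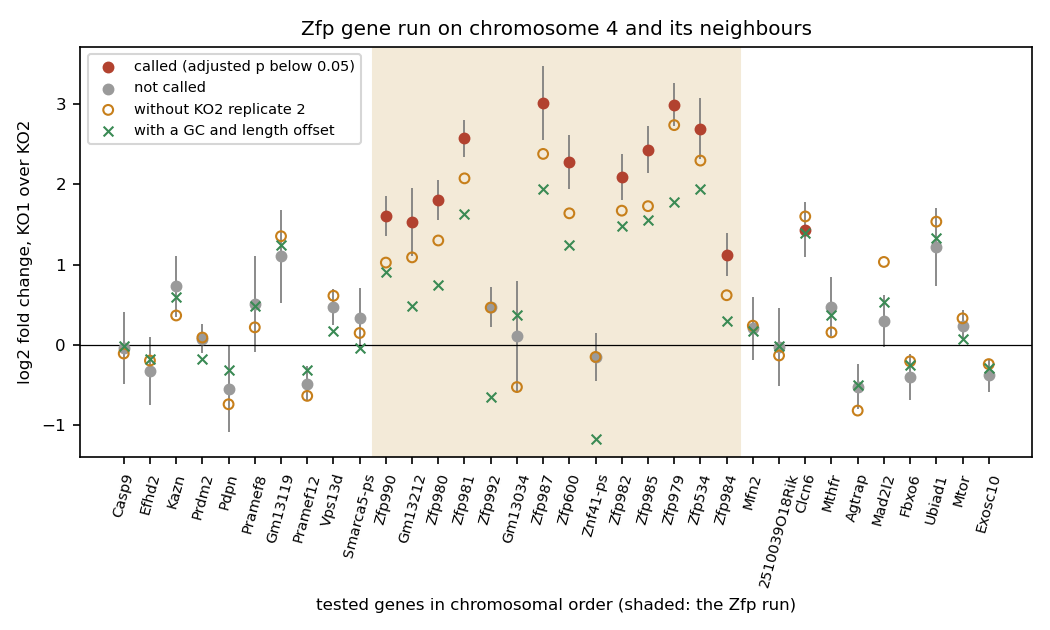
Log2 fold change of KO1 over KO2 (filled circles, bars show the SE; red when called) for the tested genes of the chromosome 4 run (shaded) and the 10 tested genes on either side in chromosomal order; open circles leave out KO2 replicate 2 and crosses add the GC and length offset. The called genes of the run lie between 1.12 and 3.01, while 1 of 20 neighbours is called.

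The difference between clones moved with the base composition and length of genes. When the tested genes were cut into quintiles, in the one with the lowest exon GC content (33.7% to 44.3%), the median log2 fold change was 0.34, and 256 genes were higher and 26 lower in KO1. In the next quintile it was 0.01, and in the 3 quintiles above it was -0.10, -0.12 and -0.06. By exon length, the medians rose from -0.19 in the shortest quintile to 0.24 in the longest. Replicates of 1 clone differed with GC content too, with Spearman correlations across 8551 genes of 0.22 for KO1 replicate 1 minus 2 and -0.30 for KO2 replicate 1 minus 2, against -0.25 for KO1 over KO2. Genes are not independent replicates, and these values are descriptions. The median of the lowest GC quintile was 0.20 without KO2 replicate 2. When each library's smooth dependence on GC content and length was removed as an offset in edgeR, 699 genes (8.17%) were called, 272 (3.18%) higher and 427 (4.99%) lower in KO1, and 490 of the 858 genes were called in the same direction. The part of GC content and length in the result of a single gene was not tested beyond this fit. Under it Sox2 (1.39), Mt1 (1.18), Vbp1 (2.38), Psat1 (-1.30), Pgam1 (-1.28), Aldoa (-0.78), Actb (-0.63) and Aebp2 (-1.69) were called, whereas Suz12, Mtf2, Kmt2c, Tet1, Dazl, Apc, Ube3a, Ireb2, Phgdh, Krt8, Myc, Id1, Zbtb6, Cdk4, Ccne1, Trp53inp1, Plk2, Cd81, Fn1 and Xist were not. Of the 12 largest decreases, Tcf19, Hpcal1, Tango2, Gng3, Cbr3 and Accsl were not called either.

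**Figure D5:**
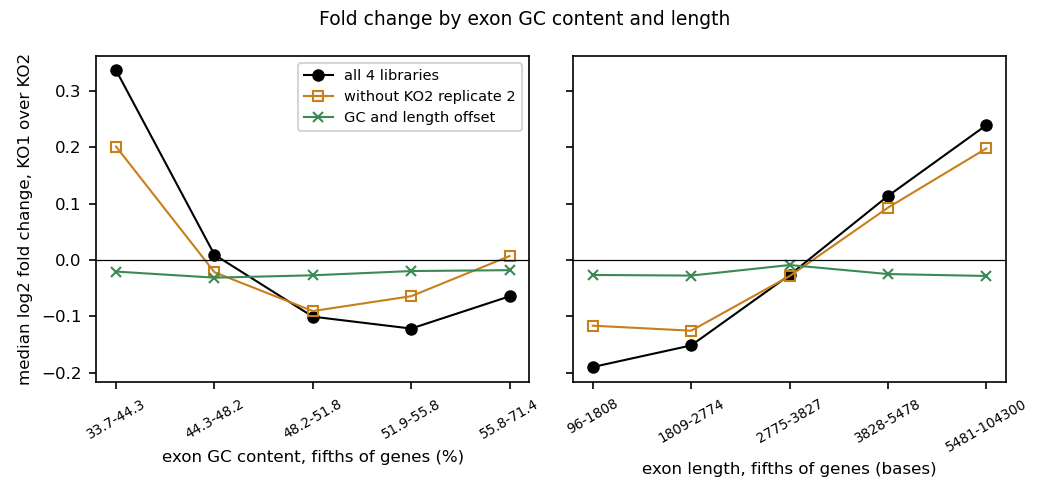
Median log2 fold change of KO1 over KO2 in quintiles of the 8551 tested genes by exon GC content (left, %) and by exon length (right, bases), for all 4 libraries (circles), without KO2 replicate 2 (squares) and with the GC and length offset (crosses). The medians reach 0.34 in the lowest GC quintile and 0.24 in the longest quintile and lie between -0.03 and -0.01 with the offset.

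No autosome shifted as a whole. Autosome medians ranged from -0.09 on chromosome 11 (700 tested genes) to 0.08 on chromosome 1 (455 tested genes). The X chromosome stood at 0.14 over 273 tested genes. Of these 273, 30 were called higher and 14 lower in KO1, against 5.20% higher and 4.83% lower of all tested genes. With the offset, the median of the X chromosome was 0.05. The Y chromosome had 2 tested genes, with a median of -0.84.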

How the data were processed

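Cytoplasmic RNA was reverse transcribed with oligo-dT, tagmented with Tn5 and sequenced. According to the methods and the file headers, the authors trimmed reads with Trim Galore 0.6.4, aligned them to mm9 with STAR 2.5.4b and counted them over refGene exons without strand in featureCounts 2.0.1 (KO) or 2.0.0 (WT). The deposited values are raw counts for 25209 genes. Here Rn45s was left out, and KO1 and KO2 were compared with edgeR 4.0.16 (TMM, filterByExpr, quasi-likelihood test, Benjamini-Hochberg adjustment, R 4.3.3). CPM was computed without Rn45s. On simulated counts for 8551 genes of this comparison, 66.0% of 2-fold and 95.0% of 4-fold changes that passed the filter were recovered, with 10 false calls. The simulation held no dependence on GC content or length and no library that stands apart, so these shares may not hold for the real libraries. Intervals are exact, at 95%, and cover counting error only. The study describes 2 independent experiments per clone, and p-values measure the spread between these libraries.

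The clones, gene classes and tests were chosen with earlier results of these data known. Of 44 class lists, renamed symbols were added after the files were seen, and the Zfp genes were added as a further class. Named genes were Aebp2, the 12 largest called changes in each direction with a mean of at least 10 CPM in 1 clone or the other, and up to 4 called members of a class, with uncalled core pluripotency, Polycomb and Dlk1-Dio3 genes; other names were added after their values were seen. H3K27me3 libraries were not analysed here, and 1 pluripotency gene is not reported here. Alternatives were DESeq2 1.42.0, other scalings, no filter, thinning, a replicate block, added WT libraries, a GC and length offset (mgcv 1.9.3, chosen after the data were seen) and each library left out.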

Additional observations from a re-analysis of the deposited data

How the results depend on the processing

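The number of called genes was 858 and lay within 1.5 times of it with DESeq2 size factors (844), library totals without TMM (874), Rn45s kept (832), no filter (737), thinned libraries (819), the GC and length offset (699) and the replicate block (639). It was 356 with DESeq2 1.42.0, all of them among the 858, where 4075 genes received an adjusted p and 662 of the 858 were among these. It was 476 when the 6 WT libraries entered the fit and 531 under the rule of P and fold change. Leaving out 1 library gave 181 (without KO1 replicate 2) to 1361 (without KO2 replicate 1) genes, with 340 without KO1 replicate 1 and 626 without KO2 replicate 2. These fits leave 1 library in a clone, which is assumed to vary like the others.

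Replicate numbers are shared by the clones, but nothing in the labels ties them. Deviations of same-numbered libraries had a correlation of -0.11 across genes, and a replicate block with these numbers gave 639 calls. The crossed pairing, added after seeing the data, gave 1431 calls.

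Aebp2 kept its direction in the edgeR fits, and DESeq2 gave it no adjusted p. Leaving out 1 library gave values of -1.77 to -1.10, with an adjusted p above 0.05 in 3 of the 4 cases. Of 119 named genes that were called, each kept its direction in the fits that gave it a value (DESeq2 did for 72 and the fit without KO1 replicate 1 for 118) except for Mtf2 (-0.15), Ube3a (-0.041) and Ireb2 (-0.11) with the GC and length offset. The call was lost for 73 without KO1 replicate 2, 62 without KO1 replicate 1, 42 without KO2 replicate 2 and 15 without KO2 replicate 1. It was lost for 49 with the WT libraries added, 37 with the GC and length offset beside the 3 reversed, 23 with DESeq2 and 18 with the replicate block. The spread between the highest and the lowest chromosome median without Y was 0.23 and ranged from 0.15 to 0.29 when 1 library was left out. The 935126 to 1124026 counts per library without Rn45s limit the precision of genes below about 10 CPM.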
